A study of Mus musculus with 12 samples.

Results

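U2af1, U2af2, U2af1l4, Zrsr1, Zrsr2 and Sf1 encode the proteins that first read the 3' end of an intron. They were taken as the rows whose symbol equals 1 of these 6 names, and all 6 were found among the 24533 genes of each of the 2 tables. RNA was sequenced from 12 libraries of C57BL/6 mouse bone marrow in 4 groups of 3, namely LSK cells labelled U2af1KO, LSK cells labelled WT, lineage-negative (LinNeg) cells labelled U2af1KO and lineage-negative cells labelled WT. LSK stands for lineage-negative cells with Sca-1 and c-Kit on their surface, among them the stem cells, and the LSK samples also carry the label BMT, which is not spelled out. Per the labels' protocols, mature lineages were removed from marrow with a magnetic depletion kit and the cells were then sorted. Age, sex, the Cre driver, the deleted exons, the time after deletion and any treatment are not given in the labels, which also do not say that the replicates are separate animals. The p-values therefore reflect variation among these libraries, and how much of it is technical is not known.

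U2AF is a heterodimer. Its large subunit, the product of U2af2, binds the run of pyrimidines near the end of the intron, and its small subunit, the product of U2af1, contacts the AG dinucleotide at the intron's last bases. SF1 binds the branch point upstream and is later replaced there by the U2 snRNP, whose SF3A and SF3B proteins hold the branch point. The product of U2af1l4 resembles the small subunit and can pair with the large one. ZRSR2 reads the 3' splice site of the rare U12-type introns in human cells, and Zrsr1 is its mouse relative, an imprinted retrogene expressed from the paternal copy. U2AF1, SF3B1, SRSF2 and ZRSR2 are the splicing genes most often mutated in human myelodysplastic syndromes.

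The members resemble each other in sequence, which bears on how far their counts can be separated. The coding sequences of the main transcripts of U2af1 and U2af1l4 were identical at 475 of 632 aligned bases (75.2%), and their longest identical run was 15 bases. Those of Zrsr1 and Zrsr2 were identical at 1017 of 1277 aligned bases (79.6%), with a longest run of 37 bases. The most alike ungapped stretch of 60 coding bases of each pair is given next, from GENCODE M21 transcripts (mm10), 5′ to 3′, with capitals at the bases that differ. The stretch starts at coding base 458 in U2af1 and in U2af1l4, at 748 in Zrsr1 and at 787 in Zrsr2. The U2AF pair differs at 8 of the 60 bases and the Zrsr pair at 1.
U2af1: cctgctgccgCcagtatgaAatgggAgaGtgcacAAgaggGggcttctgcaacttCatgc
U2af1l4: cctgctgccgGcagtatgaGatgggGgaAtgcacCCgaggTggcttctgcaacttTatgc
Zrsr1: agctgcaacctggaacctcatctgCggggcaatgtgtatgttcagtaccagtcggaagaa
Zrsr2: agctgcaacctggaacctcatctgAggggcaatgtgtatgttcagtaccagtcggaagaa

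No window of 50 bases of a member's main transcript occurred in a transcript of another member, but some occurred in other annotated genes. In the main transcript of U2af1, 592 of 997 windows of 50 bases (59.4%) occurred in transcripts of other genes, and 469 of 947 windows of 100 bases (49.5%) did. Most of these, 571 of the shorter and 453 of the longer windows, lay in Gm10232, a processed pseudogene on the same chromosome. For U2af2 the shares were 29.0% of windows of 50 bases and 4.17% of windows of 100 bases, mainly in the processed pseudogenes Gm5846 and Gm8784. For U2af1l4 they were 97.2% and 97.1%, because transcripts of the overlapping gene Gm49396 hold nearly all of its main transcript. Zrsr1 shared 7.13% of its windows of 50 bases, Sf1 0.488% and Zrsr2 0 of 2686. How the authors treated reads with several equally good positions is not given in the sources used here, so the values of U2af1, and those of U2af1l4 where its overlapping gene was annotated, are uncertain to that extent.

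U2af1 was higher in cells labelled KO in both populations. The derived mean of normalized counts (from the mean and fold change by the authors' deposited table, with 3 libraries on each side) was 4054 in LSK KO and 2650 in LSK WT cells, and 3205 in LinNeg KO and 2037 in LinNeg WT cells. Values per library were not analysed here, so whether the libraries of the groups overlap is not shown. In the authors' deposited table the fold was 1.53 in LSK (95% interval 1.41 to 1.65, DESeq2 adjusted p = 1.72e-25) and 1.57 in LinNeg (1.21 to 2.05, DESeq2 adjusted p = 0.00293). Tested against a log2 change of at most 0.25 rather than 0, U2af1 remained called in LSK and was not called in LinNeg (adjusted p = 0.119 by the normal test). Its fold change lay above that of 82.5% of the 9367 LSK genes, and of 82.2% of the 9685 LinNeg genes, whose mean was 300 or more. U2af1 (ENSMUSG00000061613.13; chromosome 17, 31647081 to 31658892, minus strand, mm10) has 8 exons in its main transcript, and the annotation lists 9 transcripts, 2 of them marked as decay substrates and 3 as intron-retaining. Gene counts pool all of these and include any exon that the deletion leaves in place, so they cannot test the KO label, and every direction here relies on how the authors named the comparison.

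U2af2, the large subunit, was higher alongside it. Its derived mean was 10778 in LSK KO and 8116 in LSK WT cells, and 11248 in LinNeg KO and 6738 in LinNeg WT cells, from the authors' deposited table. The fold by the authors' deposited table was 1.33 in LSK (95% interval 1.25 to 1.41, DESeq2 adjusted p = 2.45e-18) and 1.67 in LinNeg (1.31 to 2.12, DESeq2 adjusted p = 0.000147). Against a log2 change of at most 0.25, U2af2 remained called in LSK and LinNeg, but not in LinNeg when fold changes were also recentred on the median gene (adjusted p = 0.166 by the normal test), an alternative chosen after seeing the data. The gene (ENSMUSG00000030435.16) lies on chromosome 7 from 5062143 to 5079938, plus strand.

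Sf1, the branch point partner, rose in LSK cells and did not pass in LinNeg cells. Its derived mean was 12380 in LSK KO and 10242 in LSK WT cells, and 13863 in LinNeg KO and 12414 in LinNeg WT cells, from the authors' deposited table. The fold by the authors' deposited table was 1.21 in LSK (95% interval 1.10 to 1.32, DESeq2 adjusted p = 8.56e-05) and 1.12 in LinNeg (0.893 to 1.40, DESeq2 adjusted p = 0.467). The difference between the populations, LSK minus LinNeg, was 0.11 on the log2 scale and did not pass (adjusted p = 0.713 by the normal test). Tested against a log2 change of at most 0.25 rather than 0, Sf1 was not called in LSK (adjusted p = 1 by the normal test). Sf1 (ENSMUSG00000024949.17) lies on chromosome 19 from 6363690 to 6378030, plus strand.

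The paralogs of the small subunit did not pass the test in either population. U2af1l4 (ENSMUSG00000078765.11; chromosome 7, 30563301 to 30565365, plus strand) had a derived mean of 826 in LSK KO and 747 in LSK WT cells, and of 701 in LinNeg KO and 620 in LinNeg WT cells, from the authors' deposited table. Its log2 fold change by the authors' deposited table was 0.14 in LSK (95% interval -0.06 to 0.35, DESeq2 adjusted p = 0.235) and 0.18 in LinNeg (-0.22 to 0.58, DESeq2 adjusted p = 0.521). Its exons overlap those of Psenen, a gamma-secretase subunit gene on the opposite strand, over 119 bases, and the strand setting of the counting is not given. Psenen itself had a log2 fold change of -0.01 in LSK and -0.61 in LinNeg by the authors' deposited table.

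Zrsr2 (ENSMUSG00000031370.12; chromosome X, 163935443 to 163958661, minus strand) had a derived mean of 746 in LSK KO and 841 in LSK WT cells, and of 938 in LinNeg KO and 984 in LinNeg WT cells, from the authors' deposited table. The log2 fold change by the authors' deposited table was -0.17 in LSK (95% interval -0.39 to 0.04, DESeq2 adjusted p = 0.163) and -0.07 in LinNeg (-0.40 to 0.26, DESeq2 adjusted p = 0.781). Zrsr2 is X-linked, and markers of the sex chromosomes were unequal between the labels. Xist, which coats the silenced X, had a derived mean of 62360 in LSK KO and 347 in LSK WT cells, and of 41468 in LinNeg KO and 40.0 in LinNeg WT cells, from the authors' deposited table. The Y-linked Ddx3y had 4.99 in LSK KO and 2949 in LSK WT cells, and 1255 in LinNeg KO and 2165 in LinNeg WT cells, where it was not called (DESeq2 adjusted p = 0.739), from the authors' deposited table. The median X-linked gene with a mean of 100 or more stood at -0.02 in LSK (342 genes) and at -0.08 in LinNeg (345 genes) on the log2 scale, against 0.03 in LSK and -0.02 in LinNeg over all genes of that mean. In LSK, KO and WT thus differed in sex markers as well as in label, for every member and list compared. In LinNeg, Xist was also called higher in KO (log2 fold change 10.02, standard error 1.81, DESeq2 adjusted p = 2.73e-07) by the authors' deposited table. The LinNeg labels thus differed in Xist too, while the standard error of Ddx3y there was 1.64 on the log2 scale. The part of sex in the values of Zrsr2, the other members and the lists was not tested.

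Zrsr1 (ENSMUSG00000044068.7; chromosome 11, 22972005 to 22976496, plus strand), whose main transcript is 1 exon, had a derived mean of 352 in LSK KO and 373 in LSK WT cells, and of 644 in LinNeg KO and 776 in LinNeg WT cells, from the authors' deposited table. The log2 fold change by the authors' deposited table was -0.08 in LSK (95% interval -0.34 to 0.17, DESeq2 adjusted p = 0.592) and -0.27 in LinNeg (-0.67 to 0.13, DESeq2 adjusted p = 0.303). It lies within Commd1, a gene of copper transport and endosomal sorting on the opposite strand, and 412 of its 4492 exon bases are also exon of Commd1. The host gene had a log2 fold change of 0.65 in LSK (standard error 0.10, DESeq2 adjusted p = 1.23e-09) and of -0.26 in LinNeg (standard error 0.24, DESeq2 adjusted p = 0.398) by the authors' deposited table.

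In all, 3 of 6 members rose in LSK, against 32.4% of 16482 tested genes called higher, and 2 of 6 rose in LinNeg, against 22.1% of 17108. Members called lower numbered 0 in LSK and 0 in LinNeg, where 29.2% of genes in LSK and 19.3% in LinNeg were called lower; DESeq2's unadjusted p was under 0.05 for 0 of the members with a negative value in LSK and for 0 in LinNeg. Calls are more frequent among genes of higher mean: at a mean of 300 or more, which each member reached in both tables, 43.7% of genes were called higher in LSK and 24% in LinNeg. The median member stood at 0.21 in LSK and 0.17 in LinNeg on the log2 scale, beside 0.04 in LSK and 0.16 in LinNeg for the median tested gene. Relative to that median gene, U2af1 stood at 0.57 in LSK and 0.50 in LinNeg, U2af2 at 0.37 in LSK and 0.58 in LinNeg, and Sf1 at 0.23 in LSK and 0.0033 in LinNeg.

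**Figure D1:**
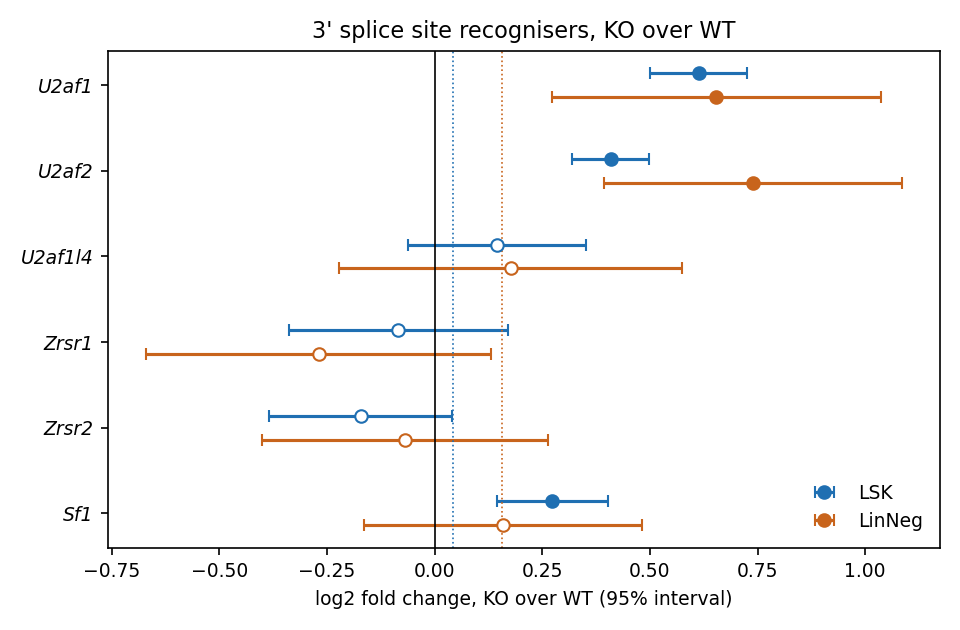
Log2 fold change of KO over WT (horizontal axis) for each member in LSK (blue, upper) and LinNeg (orange, lower), with bars for the 95% interval. Filled points have an adjusted p under 0.05, open points do not, and dotted lines mark the median tested gene of each table; U2af1 and U2af2 are filled in both populations and Sf1 in LSK.

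The standard errors also imply a spread between libraries, which is that of DESeq2's model and not the observed spread of each gene's libraries. The part due to counting a limited number of reads was subtracted first. With 3 libraries on each side and equal depth assumed, the rest corresponds to a coefficient of variation of 3.75% (U2af2) to 9.69% (Zrsr1) in LSK. In LinNeg it was 13.9% (Sf1) to 17.0% (Zrsr1). Over 10426 genes that reached a mean of 100 in each table, the median ratio of standard errors was 2.30 (LinNeg over LSK). The LinNeg interval of Sf1, -0.16 to 0.48, holds both 0 and the LSK value of 0.27.

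Divided by exon length, U2af1, U2af2 and Sf1 stood above U2af1l4, Zrsr1 and Zrsr2. Levels are the derived mean per kb of the exons of all annotated transcripts, which include retained introns, and they are compared only within a table. The order among the upper 3 members and that of the Zrsr genes in LinNeg depend on the length used, as given below. In LSK cells labelled KO the order was U2af2 (2620 per kb), Sf1 (1993 per kb), U2af1 (1560 per kb), U2af1l4 (499 per kb), Zrsr2 (104 per kb) and Zrsr1 (78.4 per kb). LSK cells labelled WT had the same order, with 1973 per kb for U2af2, 1649 per kb for Sf1, 1020 per kb for U2af1, 451 per kb for U2af1l4, 117 per kb for Zrsr2 and 83.1 per kb for Zrsr1. The intervals of the ratios below cover the implied spread between libraries only, take 2 genes to vary independently and leave the choice of length out. They also leave out the counting part, which makes them too narrow, most for genes of low count. On the exon length, each neighbouring pair in LSK had an interval above 1, the closest in KO being Sf1 over U2af1 (ratio 1.28, interval 1.18 to 1.39) and the closest in WT U2af2 over Sf1 (ratio 1.20, interval 1.11 to 1.29).

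In LinNeg cells labelled KO the order was U2af2 (2735 per kb), Sf1 (2232 per kb), U2af1 (1234 per kb), U2af1l4 (423 per kb), Zrsr1 (143 per kb) and Zrsr2 (130.4 per kb). LinNeg cells labelled WT had Sf1 first (1999 per kb), then U2af2 (1638 per kb), U2af1 (784 per kb), U2af1l4 (374 per kb), Zrsr1 (173 per kb) and Zrsr2 (137 per kb). On the same length, the places of Sf1 and U2af2 were not separated in LinNeg, with a ratio of U2af2 over Sf1 of 1.23 in KO (interval 0.972 to 1.54) and of Sf1 over U2af2 of 1.22 in WT (interval 0.968 to 1.54). Nor were those of Zrsr1 and Zrsr2, with a ratio of 1.10 in KO (0.856 to 1.41) and of 1.26 in WT (0.984 to 1.62).

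Divided by the length of the main transcript instead, an alternative added after the values were seen, the levels of the members other than Zrsr1 were 1.43 (Sf1) to 2.63 (Zrsr2) times as high, and parts of the order turned round. In LSK, U2af1 then stood above Sf1, with 3876 per kb for U2af1 and 2844 per kb for Sf1 in KO, and with 2533 per kb for U2af1 and 2353 per kb for Sf1 in WT cells. In LinNeg WT cells U2af2 stood above Sf1 (3227 per kb for U2af2 and 2852 per kb for Sf1). Zrsr2 stood above Zrsr1 in LinNeg, with 343 per kb for Zrsr2 and 143 per kb for Zrsr1 in KO, and with 359.8 per kb for Zrsr2 and 173 per kb for Zrsr1 in WT cells. With either length U2af1, U2af2 and Sf1 were above U2af1l4, and U2af1l4 was above both Zrsr genes, in each population and label. The windows that U2af1 shares with pseudogenes limit its place too.

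**Figure D2:**
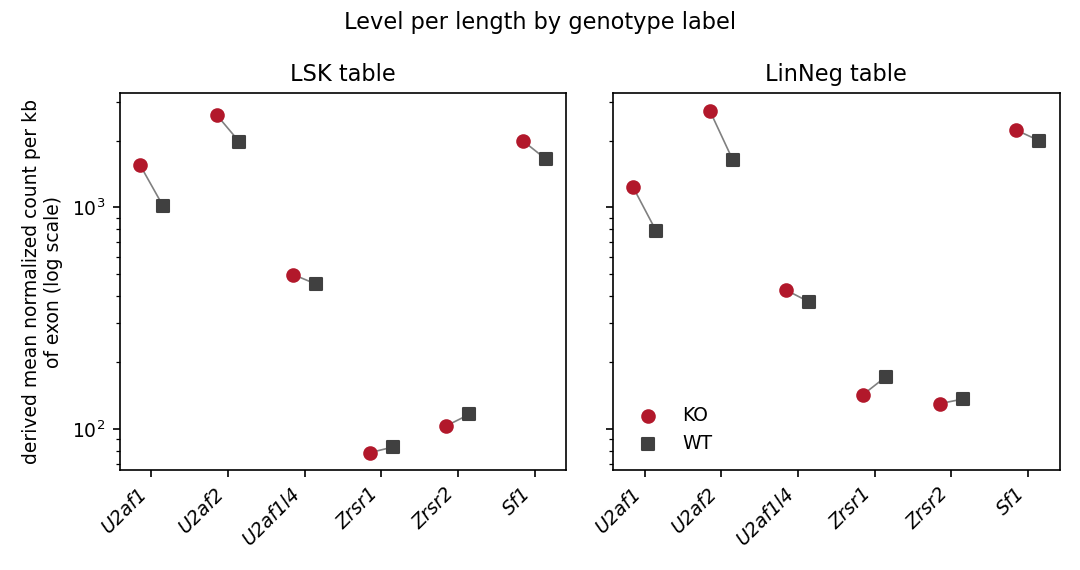
Derived mean normalized count per kb of exon (log axis) for each member, KO (red circles) left of WT (grey squares), in the LSK table and the LinNeg table. U2af1, U2af2 and Sf1 lie above U2af1l4, and Zrsr1 and Zrsr2 lie lowest in both tables.

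The make-up of the small-subunit family is given by each gene's share. Among the small subunit and its 3 relatives, U2af1 made up 69.6% of the summed level per kb in LSK KO and 61.0% in LSK WT cells, and 63.9% in LinNeg KO and 53.4% in LinNeg WT cells. U2af1l4 made up 22.2% in LSK KO and 27.0% in LSK WT cells, and 21.9% in LinNeg KO and 25.5% in LinNeg WT cells. The level of U2af1 per kb was 0.595 of that of U2af2 in LSK KO and 0.517 in LSK WT cells, and 0.451 in LinNeg KO and 0.478 in LinNeg WT cells. With the main transcript's length the share of U2af1 was 75.1% in LSK KO and 67.2% in LSK WT cells, and 70.5% in LinNeg KO and 61.2% in LinNeg WT cells. No test was made of these shares and ratios, since how genes vary together between libraries is not in the tables. The windows that U2af1, U2af2 and U2af1l4 share with other annotated genes limit these shares and ratios too.

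The effect was not shown to differ between the populations for any member. The authors named the LSK comparison BMT and the LinNeg comparison BM, so cell population and that label cannot be told apart here. The difference of the log2 fold changes, LSK minus LinNeg, was -0.04 for U2af1 (95% interval -0.44 to 0.36, adjusted p = 0.923 by the normal test over 17435 genes). For U2af2 it was -0.33 (95% interval -0.69 to 0.03, adjusted p = 0.180), the smallest p of the 6. The other 4 differences ran from -0.10 for Zrsr2 to 0.18 for Zrsr1, with adjusted p from 0.653 to 0.948. Of the members, 0 of 6 passed after adjustment and 0 had an unadjusted p under 0.05, against 28.4% of all genes called. The intervals are wide: that of U2af1 still allows an effect in LSK that is lower by 0.44 or higher by 0.36 on the log2 scale.

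**Figure D3:**
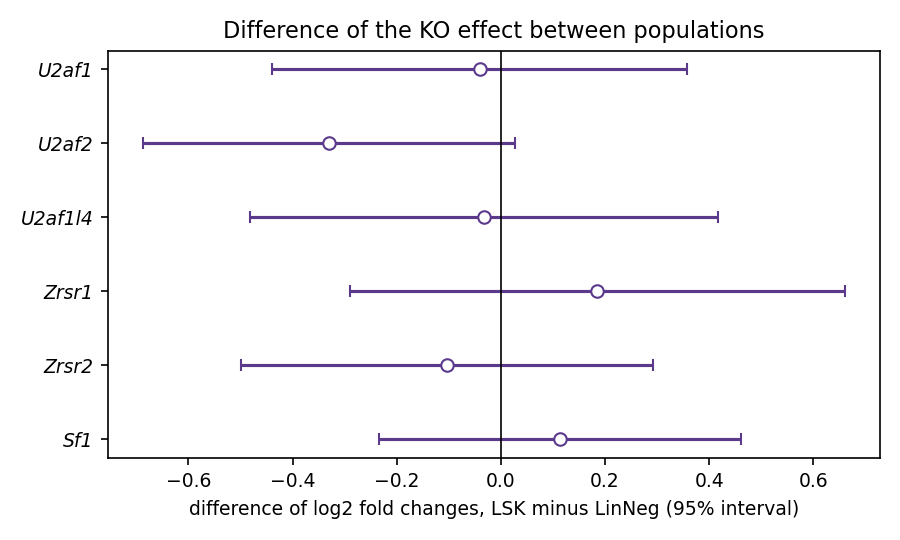
Difference of the KO effect, LSK minus LinNeg, in log2 units (horizontal axis) for each member, with bars for the 95% interval. Every interval includes 0, and that of U2af2 reaches from -0.69 to 0.03.

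Among the proteins that work beside U2AF, genes of the branch point complex that passed the test were all higher in KO. Of 15 genes of the U2 snRNP's SF3A and SF3B proteins and their partners, 14 rose and 0 fell in LSK (median 0.53 on the log2 scale) and 7 rose and 0 fell in LinNeg (median 0.47). All 15 had a mean of 300 or more, where 43.7% of genes in LSK and 24% in LinNeg were called higher. Phf5a, an SF3B subunit at the branch point pocket, led in LSK with a log2 fold change of 1.23 (standard error 0.085, DESeq2 adjusted p = 2.25e-46) and had 1.03 in LinNeg (standard error 0.20, DESeq2 adjusted p = 2.36e-06) by the authors' deposited table. Snrpb2, a U2 snRNP protein, had 0.94 in LSK (standard error 0.074) and 0.17 in LinNeg (standard error 0.21, DESeq2 adjusted p = 0.553) by the authors' deposited table. Its partner Snrpa1 had 0.81 in LSK (standard error 0.078) and 1.09 in LinNeg (standard error 0.23) by the authors' deposited table. Sf3b6, an SF3B subunit that contacts the branch point adenosine, had the lowest value of the list in LSK, -0.15 (standard error 0.10, DESeq2 adjusted p = 0.211), by the authors' deposited table.

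Of the listed cofactors of U2AF at the 3' splice site, 9 of 13 tested genes rose in LSK and 5 of 13 in LinNeg. Of them, 0 fell in LSK and 0 in LinNeg (median 0.42 in LSK and 0.35 in LinNeg). The same 43.7% in LSK and 24% in LinNeg apply to them, and 5 of 13 in LinNeg is not far from that share. Srsf2, an SR protein that bridges exonic enhancers and the splice site, had a log2 fold change of 0.63 in LSK (standard error 0.043) and 0.51 in LinNeg (standard error 0.15) by the authors' deposited table. Hnrnpc, which competes with the large subunit for uridine-rich tracts, had 0.61 in LSK (standard error 0.050) and 0.42 in LinNeg (standard error 0.17) by the authors' deposited table. Srsf1, an SR protein with a similar role, had 0.42 in LSK (standard error 0.044) and 0.50 in LinNeg (standard error 0.15) by the authors' deposited table.

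The minor spliceosome, where the Zrsr proteins act, had few called genes, some higher and some lower in LSK and each lower in LinNeg. Of 14 tested genes, 3 rose and 2 fell in LSK (median 0.13), and 0 rose and 3 fell in LinNeg (median -0.06). Of all tested genes, 32.4% were called higher and 29.2% lower in LSK, and 22.1% higher and 19.3% lower in LinNeg. Pdcd7, a protein of the U11/U12 particle, was lower in both, at -0.33 in LSK (standard error 0.076) and -0.65 in LinNeg (standard error 0.18), by the authors' deposited table. Snrnp25, of the same particle, was at 0.50 in LSK (standard error 0.14) and at -0.08 in LinNeg (standard error 0.26, DESeq2 adjusted p = 0.842) by the authors' deposited table. Zmat5 was at 0.15 in LSK (standard error 0.16, DESeq2 adjusted p = 0.430) and at -0.85 in LinNeg (standard error 0.24) by the authors' deposited table. The snRNA genes themselves were barely counted, with means of 3.45 (Rnu11) and 6.41 (Rnu12) in LSK and 18.1 (Rnu11) and 14.3 (Rnu12) in LinNeg by the authors' deposited table.

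Second step factors act when the upstream exon is joined to the exon after the AG. In LSK 6 of 10 rose and 1 fell (median 0.28), and in LinNeg 0 of 10 rose and 2 fell (median -0.11). All 10 had a mean of 300 or more, where 43.7% of LSK genes and 24% of LinNeg genes were called higher. Over tested genes of any mean, 29.2% in LSK and 19.3% in LinNeg were called lower. The share called lower was not taken at a mean of 300 or more. The helicase Dhx38 was at 0.60 in LSK (standard error 0.066) and at -0.21 in LinNeg (standard error 0.19, DESeq2 adjusted p = 0.381) by the authors' deposited table. Cactin was at 0.48 in LSK (standard error 0.078) and at 0.42 in LinNeg (standard error 0.19, DESeq2 adjusted p = 0.0612) by the authors' deposited table. Fam32a was lower in both, at -0.58 in LSK (standard error 0.096) and -0.57 in LinNeg (standard error 0.17), by the authors' deposited table. Slu7, which helps choose the AG, was at -0.11 in LSK (standard error 0.083, DESeq2 adjusted p = 0.238) and at -0.38 in LinNeg (standard error 0.14) by the authors' deposited table. At an unadjusted p under 0.05 in DESeq2, 2 second step factors were higher in LinNeg, while 0 minor spliceosome genes were higher in LinNeg and 0 U2 snRNP genes or cofactors were lower in LSK or LinNeg. Differences between the lists or populations were not tested.

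**Figure D4:**
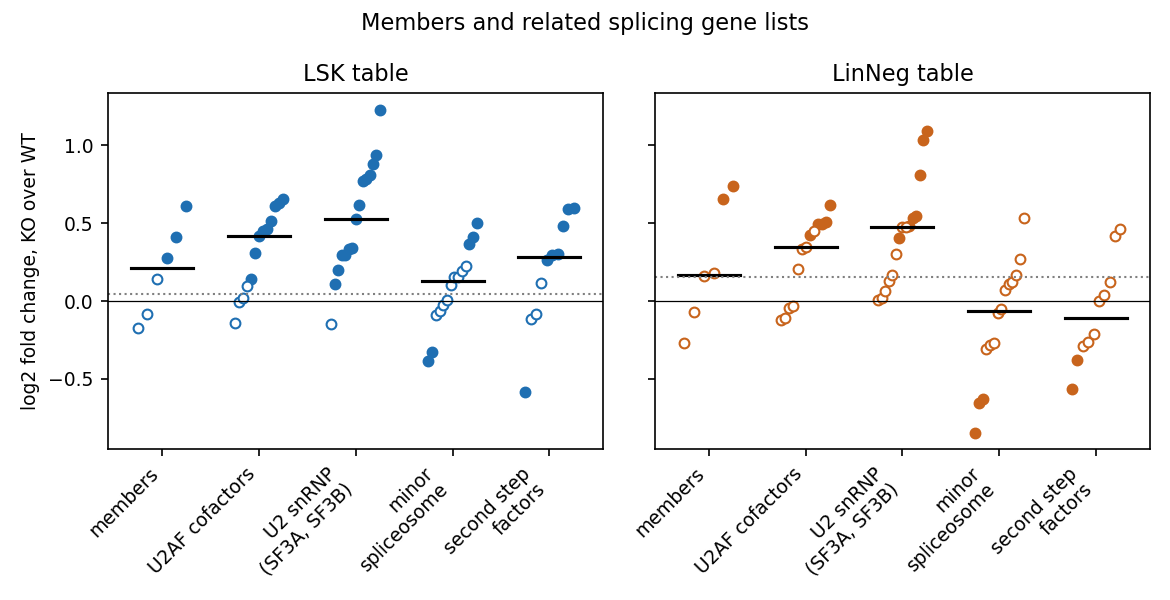
Log2 fold change of KO over WT (vertical axis) for the 6 members and the tested genes of 4 related lists, in the LSK table and the LinNeg table; each point is a gene, filled where the adjusted p is under 0.05, black bars are medians and the dotted line is the median tested gene. The U2 snRNP list has its median at 0.53 in LSK and 0.47 in LinNeg, while the minor spliceosome list lies around 0.

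The genes whose pair of fold changes lay nearest to that of U2af1, out of 10424 genes that reached a mean of 100 in each table, were Thoc5, Set, Ndufaf6, Ndufaf1 and Rabl3. Likeness was the Euclidean distance over the 2 comparisons on the log2 scale. Thoc5, an mRNA export protein, had 0.60 in LSK and 0.66 in LinNeg, and Set, a histone chaperone, 0.60 in LSK and 0.64 in LinNeg, by the authors' deposited table. With only 2 values per gene the measure separates little, as 102 genes lay within a distance of 0.1. U2af2 lay at a distance of 0.22, in place 466.

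Markers of several cell types differed between the labels at the same time, and in such bulk samples fewer cells of a type cannot be told apart from less RNA per cell. Kit and Ly6a, the genes of the c-Kit and Sca-1 antigens that define LSK cells, had derived means of 14587 and 335 in LSK KO and of 28724 and 593 in LSK WT cells, from the authors' deposited table. In LinNeg, Ly6a went the other way, with 2784 in KO and 605 in WT cells (log2 fold change 2.20, DESeq2 adjusted p = 1.31e-13), and Kit had 2114 in KO and 1644 in WT cells (0.36, DESeq2 adjusted p = 0.0572), from the authors' deposited table. Of 8 stem and LSK markers, 7 were lower in LSK KO cells, with a summed mean of 23989 in KO and 84350 in WT cells. In LinNeg 2 of the 8 were higher and 2 lower (6580 in KO and 10764 in WT cells). Of 8 erythroid markers 6 were tested and all 6 were higher in KO in LSK (summed mean 47609 in KO and 6339 in WT cells) and in LinNeg (51436 in KO and 10397 in WT cells), with Hbb-bs listed at 0 in both tables and Hba-a1 at 0 in LinNeg. Of 7 monocyte and dendritic markers, 6 were tested in LSK, with 1 higher and 2 lower (summed mean 4872 in KO and 5904 in WT cells), and 7 were lower in LinNeg (773 in KO and 60190 in WT cells). Neutrophil markers were higher in 7 of 7 in LSK (172042 in KO and 61152 in WT cells) and lower in 6 of 6 tested in LinNeg (4351 in KO and 87036 in WT cells). Neural markers were higher in 7 of 7 in LSK (2627 in KO and 23.5 in WT cells) and in 6 of 7 in LinNeg (2848 in KO and 629 in WT cells). Mature lymphoid markers were called in 0 of 8 in LSK by DESeq2, also at an unadjusted p under 0.05 (483 in KO and 418 in WT cells) and higher in 2 of 7 tested in LinNeg (2496 in KO and 755 in WT cells). Over all tested genes, 32.4% were called higher and 29.2% lower in LSK, and 22.1% higher and 19.3% lower in LinNeg. The calls of stem and LSK markers in LinNeg are not far from those shares. Nor are those of monocyte and dendritic markers in LSK and of mature lymphoid markers in LinNeg. The part of the marker differences in the values of the 6 members was not tested.

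The upstream sequence is shown for the called members that have one in RefSeq's table, U2af1 and Sf1. Each covers the 250 bases before the start of transcription in that table (GRCm38.p6, 5′ to 3′ on the gene's strand), with capitals at matches on either strand to CCAAT or GGGCGG. The table lists 2 starts for U2af1, and the more upstream is used. GENCODE M21 starts the U2af1 gene further upstream still, so the last 128 bases shown lie inside the gene as placed above, among them both CCAAT matches and 2 of the 3 GGGCGG matches. U2af1 is chr17:31658765-31659014, minus strand, and Sf1 is chr19:6363440-6363689, plus strand.
U2af1: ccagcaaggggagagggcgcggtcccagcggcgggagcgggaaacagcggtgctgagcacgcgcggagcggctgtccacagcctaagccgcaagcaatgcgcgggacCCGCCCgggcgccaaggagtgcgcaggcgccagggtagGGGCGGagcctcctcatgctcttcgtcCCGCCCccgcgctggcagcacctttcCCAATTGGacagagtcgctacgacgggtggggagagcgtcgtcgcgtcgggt
Sf1: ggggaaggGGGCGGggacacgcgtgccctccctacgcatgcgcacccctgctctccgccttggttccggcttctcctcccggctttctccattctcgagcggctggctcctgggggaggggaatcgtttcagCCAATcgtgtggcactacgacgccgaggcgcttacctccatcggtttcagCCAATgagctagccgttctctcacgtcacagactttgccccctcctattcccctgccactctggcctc

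The U2af1 stretch was 71.6% G and C, above 92.7% of all 32851 promoters of the table, and that of Sf1 64.0%, above 80.8%. U2af1 held 3 matches to GGGCGG and 2 overlapping matches to CCAAT, 1 on each strand, and Sf1 held 1 match to GGGCGG and 2 to CCAAT. Of all promoters of that length, 33.8% held CCAAT and 32.7% held GGGCGG. Neither stretch matched CACGTG (in 6.02% of promoters), TATAAA (12.4%) or CCGGAAG (6.91%). A match is a description of these letters only.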

How the data were processed

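Both tables are the authors' own comparisons of KO over WT, made with DESeq2 per the submitters' processing notes, which also name HISAT2, SAMtools 1.10, StringTie and the build mm10. The sources used here do not give the counting program, annotation, strand setting or treatment of reads with several positions. Per the file headers, each deposited table gives a mean of normalized counts (a signal on a linear scale), a log2 fold change with its standard error (log2), a Wald statistic (a score), and a p-value with its adjusted p-value. No values per library were analysed, so the depth of each library is unknown. In LSK and in LinNeg, 5 rows without a gene name and 4 with a repeated symbol were dropped. Reads outside any feature were 26.4% of the LSK total and 38.0% of the LinNeg total, and reads in more than 1 gene 0.752% of LSK and 0.689% of LinNeg.

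Because the deposited log2 fold changes are rounded to 2 decimals, they were rebuilt from the statistic and its standard error (largest gap 0.005). The call rule was an adjusted p under 0.05 in the authors' DESeq2 run; a test on counts per library had been planned and was not run. Group means were derived from each gene's overall mean and its fold change. Intervals are 95% normal intervals. The difference LSK minus LinNeg was tested with a two-sided normal test with Benjamini-Hochberg adjustment over all genes, after a check on simulated data. Levels are not compared across the tables, which were normalized separately. Members and lists were chosen with earlier results of these data known. Named genes are the members, the 2 smallest adjusted p of each list and table, snRNA genes, overlapping genes and the 5 nearest to U2af1; Sf3b6, Xist, Ddx3y, Kit and Ly6a were added after their values were seen. Of the listed genes, Rbm23, Rnu4atac and Rnu6atac were not analysed here, and Cenatac was read under its older symbol Ccdc84. Annotation was GENCODE M21 (mm10), and promoters came from RefSeq (GRCm38.p6). Computations used Biopython 1.88, matplotlib 3.10.9, scipy 1.17.1, pandas 2.3.3 and numpy 2.4.6 under Python 3.11.15.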

Additional observations from a re-analysis of the deposited data

Results flagged for a closer look

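Reads that fall in more than 1 gene are counted in a row of their own, outside every comparison of genes, and in LSK that row was higher in KO, with a log2 fold change of 0.39 (standard error 0.038, DESeq2 adjusted p = 2.93e-24) by the authors' deposited table. The row for reads without a feature was lower in LSK KO, at -0.47 (standard error 0.047, DESeq2 adjusted p = 2.01e-22), by the authors' deposited table. In LinNeg the same rows had log2 fold changes of 0.04 and 0.01 (standard errors 0.13 and 0.19, DESeq2 adjusted p = 0.858 and 0.972) by the authors' deposited table. The parts of U2af1l4 and Zrsr1 that overlap Psenen and Commd1 on the opposite strand would be counted in the first of these rows if counting ignored the strand. The strand setting is not given. Gm14966, which overlaps Sf1, and Gm49396, which overlaps U2af1l4, were not among the genes analysed here under those symbols.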

How the results depend on the processing

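No paired analysis was possible because the tables hold no values per library, and leaving out each replicate was not run for the same reason. The calls of U2af1, U2af2 and Sf1 in LSK and of U2af1 and U2af2 in LinNeg held at an adjusted p under 0.01, with adjustment over every gene with a p-value or only over genes whose mean reached 100, and after recentring on the median gene. With a null hypothesis of a log2 change of at most 0.25, LinNeg kept 1 call, U2af2 (U2af1 had an adjusted p of 0.119 by the normal test), and LSK kept 2, U2af1 and U2af2. With that null and recentring together, chosen after seeing the data, LinNeg kept 0 calls (adjusted p = 0.431 for U2af1 and 0.166 for U2af2 by the normal test) and LSK kept 2. The difference between the populations was called for 0 members under each of the 3 alternatives run. The 5 genes nearest to U2af1 were also the nearest 5 with scaled fold changes. Levels per length and their order under another length stand beside the levels. The depth of each library is unknown, so the limit it sets was not assessed.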
